A study of Mus musculus with 18 samples.

Results

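L929 cells, a line of mouse fibroblasts labelled as wild type, that received herring testis DNA (HT-DNA) with aminooxyacetic acid (AOA) and aspartate were compared with L929 cells that received HT-DNA alone. The comparison holds 6 of the 18 libraries of the series, 3 of HT-DNA+AOA+Asp and 3 of HT-DNA, chosen by their labels and not by any measured value. HT-DNA was transfected with Lipofectamine, a lipid reagent, and used at 0.5 μg/ml for 6 h in both groups. The HT-DNA+AOA+Asp cells also had 0.5 mM AOA from 1 h before HT-DNA, and 20 mM aspartate. The other groups were Mock (labelled DMSO), AOA, AOA+Asp and HT-DNA+AOA, each with 3 libraries, at the same doses. No group received aspartate alone or HT-DNA with aspartate, so what differs between the groups compared is AOA and aspartate together. All libraries came from 1 cell line, and the study describes separate cultures as replicates. The comparison asks how AOA-treated cells given aspartate differed from HT-DNA alone. A difference may be left from AOA or may appear only once aspartate is added. HT-DNA+AOA means are therefore given for some genes.

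AOA blocks aminotransferases, enzymes that move amino groups between amino acids by means of pyridoxal phosphate, and the aspartate aminotransferases Got1 and Got2 are among them. Cells use aspartate to make proteins, asparagine, purines and pyrimidines, and to carry electrons into mitochondria. When an amino acid is short, the kinase Gcn2 slows translation in general while the transcription factor Atf4 is still made, and Atf4 with Cebpg or Ddit3 switches on amino acid synthesis and transport genes. Cytosolic DNA is sensed by cGAS, which makes cGAMP for the adaptor STING, and the kinase TBK1 then activates IRF3, interferon and the interferon-stimulated genes (ISGs). The sterol program, driven by the transcription factor SREBP2, makes and takes up cholesterol when membrane sterols are low.

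The 6 libraries held between 20247896 and 23378882 estimated reads (17901546 to 24057284 over all 18). Replicates differed by more than counting error, with a chi-square per degree of freedom between 2.78 and 11.6 over the pairs within a group. Of 9 fibroblast markers, 8 passed the filter on low counts, and Thy1 was near 0 in both groups (means of 0.0472 and 0.0476 CPM, read counts scaled to a common library size). Summed, the fibroblast markers were at 8230 to 9080 CPM in HT-DNA and 6900 to 6980 CPM in HT-DNA+AOA+Asp, a sum made up mostly of Vim, S100a4 and Lgals1. Its members went both ways, with Col1a1, Col1a2, Vim and Lgals1 lower (log2 fold changes from -0.54 to -0.26), Pdgfrb and Pdgfra higher (0.60 and 0.48), and Col3a1 and S100a4 not called. The 6 macrophage markers summed to 112 to 127 CPM and 126 to 137 CPM, almost all of it Cd68, with Ptprc, Adgre1 and Itgam at 0 in all 6 libraries. The 4 T or B cell markers summed to at most 1.31 CPM, the 4 endothelial ones to at most 0.529 CPM and the 4 epithelial ones to at most 0.336 CPM. In bulk RNA, fewer cells of a type and less RNA per cell cannot be told apart.

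The HT-DNA libraries stood apart from those of HT-DNA+AOA+Asp in how read counts followed base composition. Between the decile of genes poorest in GC and the decile richest in GC, the median log2 level relative to the mean of all libraries differed by -0.52, -0.33 and -0.54 in the 3 HT-DNA libraries, so that GC-rich genes were high there. The same difference was 0.14, 0.23 and 0.28 in HT-DNA+AOA+Asp, 0.53, 0.17 and 0.28 in AOA+Asp, and -0.01, 0.01 and 0.03 in Mock. The HT-DNA+AOA libraries went both ways, at 0.37, 0.05 and -0.41. The trend goes with the groups compared, so its part in a result cannot be told apart from that of the treatment. For HT-DNA+AOA+Asp against HT-DNA, the counts of genes called higher and lower are therefore given as measured and with a correction. The correction removes every library's trend on GC content and transcript length. Where only 1 fold change is given for a gene, it is without the correction and may differ with it.

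The amino acid response genes, which rose most often of the groups described below, are known for a promoter sequence to which Atf4 complexes bind, the amino acid response element. The 9 letters TGATGNAAN were searched on both strands in the 250 bases before each gene's start, with sequences from RefSeq (build GRCm38.p6). They were found before 9 of the 27 amino acid response genes that have such a sequence (33.3%), and before 235 of all 9833 genes tested that have one (2.39%). Each match is shown in a window of 30 bases on the gene's strand, with the letters of the element in capitals, in the sequence or its reverse complement.
Chac1, chr2:119351038-119351067, plus strand: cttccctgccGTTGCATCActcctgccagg
Vldlr, chr19:27216809-27216838, plus strand: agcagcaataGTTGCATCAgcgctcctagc
Slc7a11, chr3:50443660-50443689, minus strand: ctcatgtggcTGATGCAAAcctggagaatt
Slc7a11, chr3:50443642-50443671, minus strand: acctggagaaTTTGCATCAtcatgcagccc
Fgf21, chr7:45615611-45615640, minus strand: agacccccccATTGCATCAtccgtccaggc
Asns, chr6:7693213-7693242, minus strand: cccagccacaTGATGAAACttcccgcacgc
Nupr1, chr7:126625562-126625591, minus strand: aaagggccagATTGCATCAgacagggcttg
Atf3, chr1:191183425-191183454, minus strand: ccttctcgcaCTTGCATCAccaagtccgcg
Pck2, chr14:55540152-55540181, plus strand: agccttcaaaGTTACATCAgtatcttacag
Pycr1, chr11:120643832-120643861, minus strand: gccctgtgtaTGATGCAATgcacaaggctc
A match is a description of the letters and not a bound site. The group is made up of genes known for this response, so its share describes the list and not this comparison. Of the genes with a match, Atf3, Pck2 and Pycr1 were not called without the correction. Ddit3, Trib3 and Aldh1l2, which rose, were not among those with a match. For contrast, the letters TCACNCCAC of the sterol regulatory element stood before 1 of the 18 sterol genes with a sequence (5.56%) and before 118 of all 9833 (1.2%), and that gene was Hmgcs1, which acts early in sterol synthesis.
Hmgcs1, chr13:119690204-119690233, plus strand: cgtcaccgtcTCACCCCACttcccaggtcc

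HT-DNA+AOA+Asp differed from HT-DNA over much of the transcriptome, mostly by small amounts. By edgeR's quasi-likelihood test at a Benjamini-Hochberg adjusted p under 0.05, 6649 of 14263 genes were called (46.6%), 3303 higher (23.2%) and 3346 lower (23.5%) in HT-DNA+AOA+Asp. The median size of the change was 0.52 on the log2 scale among the higher genes and 0.42 among the lower ones, and 486 of the called genes changed by at least 1 (368 higher and 118 lower). The 3 replicates of one group and the 3 of the other did not overlap for 8720 genes (61.1%). With the correction for GC content and length, 5259 of 13909 genes were called (37.8%), 2776 higher (20.0%) and 2483 lower (17.9%), with median sizes of 0.36 and 0.32. Of these, 326 changed by at least 1, 274 of them higher and 52 lower. Without the correction the 3303 higher and 3346 lower genes became 3655 and 2890 when libraries were scaled by their totals, which moved the median of all genes by 0.05.

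The difference followed GC content and length closely before the correction. The genes poorest in GC (median 39%) had a median log2 fold change of 0.29, with 36.8% called higher and 5.03% lower, while those richest in GC (median 59.2%) had a median of -0.38, with 1.87% called higher and 57.4% lower. Along transcript length the median went from -0.26 in the shortest decile (median 792 bases) to 0.37 in the longest (median 8000 bases). Spearman's rho across genes, a description since genes are not independent replicates, was -0.516 with GC content and 0.34 with length, and -0.0616 and -0.0132 after the correction. The median higher gene had 45.1% GC and a longest transcript of 4433 bases, the median lower gene 54.6% and 2536 bases, and the median tested gene 49.3% and 3120 bases.

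**Figure D1:**
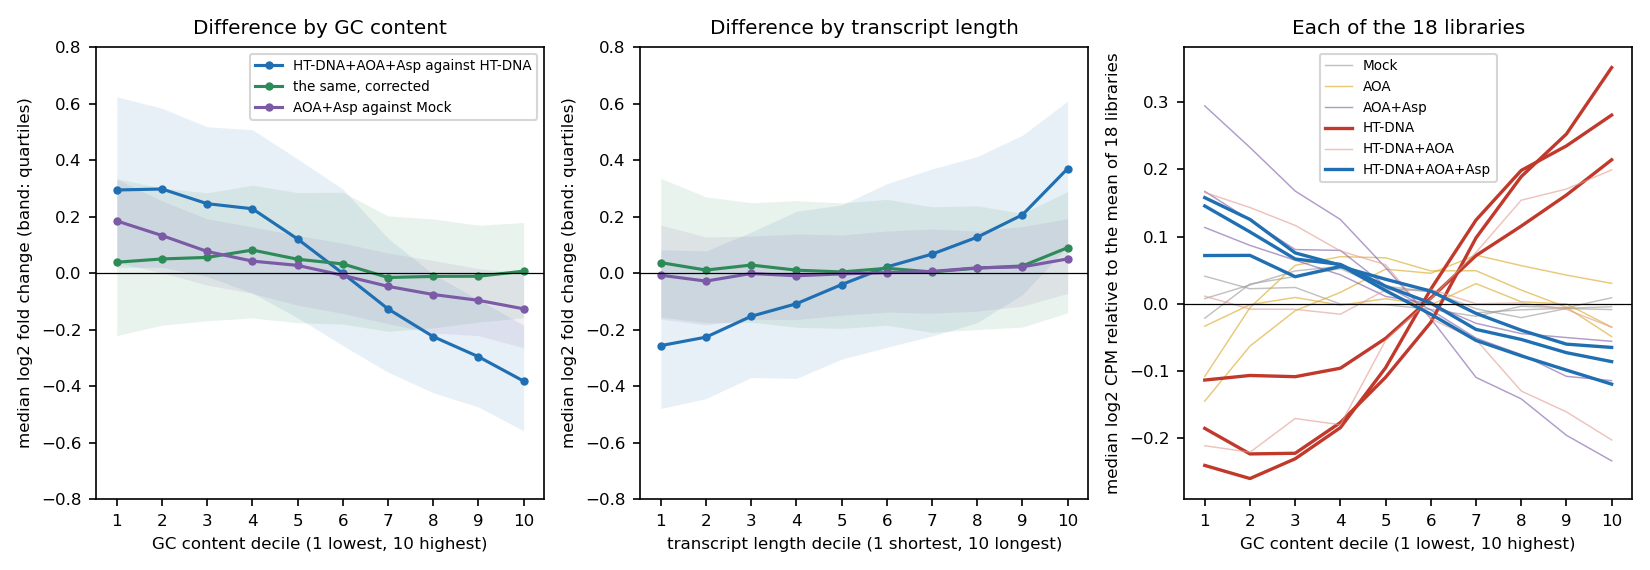
The first panels plot the median log2 fold change (line) and the interquartile range (band) by decile of GC content and of transcript length, for HT-DNA+AOA+Asp against HT-DNA without and with the correction and for AOA+Asp against Mock; the last plots each library's median log2 CPM relative to the mean of all libraries by decile of GC content. The uncorrected line falls from 0.29 to -0.38 along GC content and the corrected line stays between -0.02 and 0.08, and the 3 HT-DNA libraries rise toward GC-rich genes while those of HT-DNA+AOA+Asp decline.

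The correction changed which genes were called. Called in the same direction with and without it were 3824 genes (27.5% of the 13909), 2084 higher (15%) and 1740 lower (12.5%), which is 58.3% of the genes called without it that have a GC content and length and 72.7% of those called with it. A further 2673 genes were called only without it, 1144 higher and 1529 lower, 1374 were called only with it, and 61 were called with opposite signs. Another 91 called genes had no GC content and length and were not in the corrected fit.

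The genes whose call was lost and whose value moved furthest were long or rich in GC. Those higher only before the correction were Nopchap1 (log2 fold change 0.48 without and -0.14 with the correction), Hnrnpr (0.59 and 0.03), which encodes an RNA-binding protein, the pheromone receptor gene Vmn2r53 (0.66 and 0.11), Styx (0.35 and -0.17) and Pnpla8 (0.46 and -0.04), with longest transcripts of 12974 bases or more. Those lower only before it were Zfp771 (-0.42 and 0.16), Samd1 (-0.45 and 0.12), Sap30l (-0.36 and 0.20), the nuclear receptor gene Nr2f6 (-0.68 and -0.12) and Mif (-0.48 and 0.07), a secreted inflammatory factor, with at least 63.5% GC. Of the 31-base stretches of Vmn2r53, Styx and Mif, 24%, 26% and 39.1% also occur in transcripts of other genes, so their counts are uncertain.

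The largest rises that held with and without the correction were led by a pseudogene and a long noncoding RNA. Eif4a-ps4 was at 7.32, 17.7 and 12 CPM in HT-DNA and 91.2, 101 and 90.6 CPM in HT-DNA+AOA+Asp (log2 fold change 2.93 ± 0.73 SE), but 97.4% of its 31-base stretches recur in transcripts of other genes and its counts are uncertain. Neat1, the RNA scaffold of nuclear paraspeckles, was at 78.1, 70.4 and 84.5 CPM in HT-DNA and 435, 548 and 426 CPM in HT-DNA+AOA+Asp. This is a log2 fold change of 2.60 ± 0.25 (SE; edgeR adjusted p = 4.99e-06) and 2.20 after the correction. Gadd45a, which halts the cell cycle under stress, stood at 15.1, 14.7 and 14.1 CPM against 54.2, 50.1 and 50.0 CPM (log2 fold change 1.81 ± 0.08 SE, edgeR adjusted p = 2.27e-11), and its value was larger after the correction at 2.01. Ppargc1a, a coactivator of mitochondrial genes, went from 3.43, 4.88 and 3.88 CPM to 15, 18.5 and 14.7 CPM. Ogt, the enzyme that adds O-GlcNAc to proteins, went from 63.5, 76.8 and 70.8 CPM to 201, 205 and 196 CPM. The Mock means of Eif4a-ps4, Neat1, Gadd45a, Ppargc1a and Ogt were 83.1, 283, 23.1, 9.65 and 150 CPM. Each lay between the means of the groups compared. Their HT-DNA+AOA means were 34.8, 411, 216, 6.9 and 92.9 CPM. Replicates that do not overlap were a condition for this set and for the falls below, so their separation is no result. The other rises of this set had log2 fold changes of 1.90 (Napb), 1.87 (Hspa4l), 1.82 (Ddit3), 1.73 (the pheromone receptor gene Vmn1r18), 1.69 (Fam171b), 1.65 (Zfp329), 1.61 (Fam227a, B3gat2 and Slc5a3) and 1.52 (the odorant receptor gene Or5ac22). Of these, Vmn1r18, Fam227a, B3gat2 and Or5ac22 were low, with HT-DNA means of 0.311, 0.351, 0.608 and 0.356 CPM.

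The largest falls held immediate early genes, secreted factors and signalling genes. Exosc6 was at 8.89, 7.34 and 9.43 CPM in HT-DNA and had 0 counts in each HT-DNA+AOA+Asp library, at least 59.5-fold lower when 3 counts per library are allowed, but all of its 31-base stretches (100%) recur elsewhere in the transcriptome, and it was also at 0 in Mock and AOA+Asp. Its call was lost by DESeq2 (adjusted p = 0.0995) and with the correction and the replicate block together (edgeR adjusted p = 0.0893). Tmem171 stood at 24.3, 23.5 and 25.5 CPM against 7.78, 7.50 and 8.42 CPM, a log2 fold change of -1.63 ± 0.14 (SE; edgeR adjusted p = 3.03e-07). Angptl4, an inhibitor of lipoprotein lipase, went from 138, 138 and 152 CPM to 51.5, 52.0 and 54.5 CPM. Pim3, a serine/threonine kinase, went from 100, 98.0 and 117 CPM to 34.7, 35.7 and 38.0 CPM. Apln, which encodes the peptide apelin, went from 35.1, 36.7 and 37.1 CPM to 11.2, 12.2 and 14.4 CPM. The Mock means of Tmem171, Angptl4, Pim3 and Apln were 10.8, 59.4, 73.8 and 16.4 CPM. Each lay between the means of the groups compared. Their HT-DNA+AOA means were 20.0, 120, 49.1 and 8.33 CPM. Other falls of this set had log2 fold changes of -2.03 (Fos), -1.79 (Fa2h), -1.71 (Egr1), -1.68 (Tgm1), -1.66 (the cytokine signalling inhibitor Cish), -1.61 (the chemokine Ccl4), -1.57 (the growth factor Btc and the histone gene H2ac8) and -1.49 (Junb and Dusp28). H2ac8 is uncertain too, with 47.9% of such stretches shared.

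**Figure D2:**
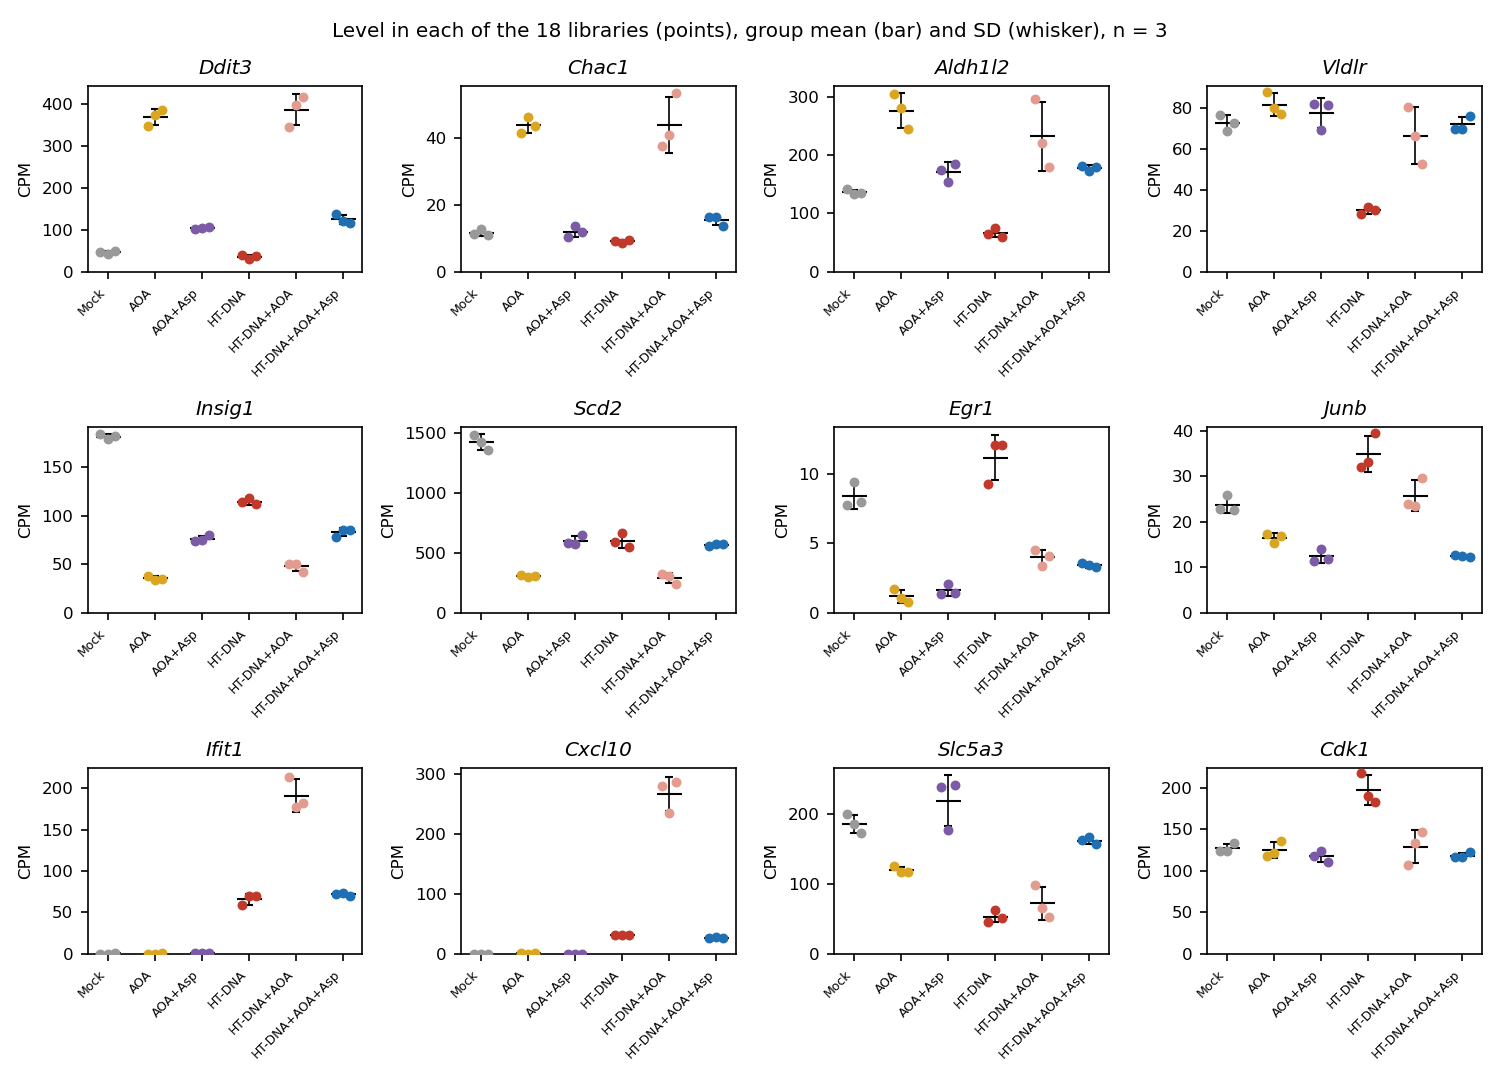
CPM on a linear axis from 0 in all 18 libraries for 12 genes, with points for libraries, bars for the mean of a group and whiskers for the SD (n = 3). Ddit3 and Slc5a3 are higher and Insig1, Egr1, Junb and Cdk1 are lower in HT-DNA+AOA+Asp than in HT-DNA. The points of Ifit1 do not overlap between these groups, but its difference was not called.

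Genes of the amino acid response were higher after AOA and aspartate than after HT-DNA alone. Of 35 listed genes 33 passed the filter, of which 19 rose and 3 fell, with a median log2 fold change of 0.29 against 0.0032 over all genes. After the correction 25 rose and none fell by edgeR, and the median was 0.44 against 0.0241 over all genes. Both with and without it, 18 members rose. The members called were 66.7% without it and 75.8% with it, against 46.6% and 37.8% of all genes. By role, the correction changed the 12 regulators from 5 higher and 1 lower to 9 higher and the 9 transporters from 6 higher and 2 lower to 6 higher, while the 8 enzymes had 5 and then 6 higher and the 4 secreted proteins or receptors 3 and then 4.

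Among the regulators, Ddit3 (CHOP), a transcription factor of sustained stress, stood at 38.8, 30.9 and 36.9 CPM in HT-DNA and 137, 121 and 117 CPM in HT-DNA+AOA+Asp. This is a log2 fold change of 1.82 ± 0.09 (SE; edgeR adjusted p = 4.66e-10) and 1.95 after the correction. The mean of Ddit3 was 46.2 CPM in Mock and 386 CPM in HT-DNA+AOA. Trib3, a pseudokinase that binds Atf4, was at 88.5, 79.1 and 83.5 CPM and then 142, 135 and 128 CPM (log2 fold change 0.69, and 1.09 corrected). Ppp1r15a, which restores translation by guiding dephosphorylation of eIF2α, rose by 0.76, and Cebpg, a partner of Atf4, rose by 0.95, both on the log2 scale. Atf4 itself had a log2 fold change of -0.12 (edgeR adjusted p = 0.24), and of 0.20 after the correction (edgeR adjusted p = 0.000573), so its call rests on the correction. The same held for Sesn2, an inhibitor of mTORC1 signalling (0.16, edgeR adjusted p = 0.13, and 0.50 corrected) and for Cebpb (-0.21, edgeR adjusted p = 0.213, and 0.35 corrected). Atf5 was called lower at -0.43 before the correction and was at 0.05 after it (edgeR adjusted p = 0.506). Nupr1, a stress protein, had 0.21 and 0.27, and Atf3, at no more than 0.189 CPM in any of the 6 libraries, was not called.

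Among the enzymes, Aldh1l2, of the mitochondrial folate cycle, was at 64.9, 74.5 and 60.2 CPM in HT-DNA and 181, 172 and 180 CPM in HT-DNA+AOA+Asp. The groups did not overlap (log2 fold change 1.42 ± 0.13 SE, edgeR adjusted p = 1.45e-06, and 1.14 corrected), and the Mock mean was 136 CPM. Chac1, which degrades glutathione, went from 9.19, 8.47 and 9.38 CPM to 16.2, 16.3 and 13.7 CPM (0.77 on the log2 scale, and 1.17 corrected). Cth, which makes cysteine, rose by 0.65 on the log2 scale, and Gpt2, the mitochondrial alanine aminotransferase, went from 56.2, 58.5 and 52.9 CPM to 85.4, 83.4 and 78.7 CPM. Asns, which makes asparagine from aspartate, differed little: it was at 403, 393 and 360 CPM and then 435, 435 and 417 CPM (log2 fold change 0.15 ± 0.06 SE, edgeR adjusted p = 0.034, and 0.18 corrected). The ranges of Asns did not overlap, but the call was lost without HT-DNA replicate 2 or 3 (edgeR adjusted p = 0.0622 and 0.184) or HT-DNA+AOA+Asp replicate 1 or 2 (0.0969 and 0.0993). Pck2 and Pycr1, which carry the element as Asns does, had log2 fold changes of 0.11 and 0.02 and were not called in either fit.

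The transporters and secreted factors were led by Slc7a11, the cystine importer, which went from 16.7, 22.0 and 18.4 CPM to 40.7, 45.4 and 42.5 CPM. The ranges were apart (log2 fold change 1.17, and 0.78 corrected), with a Mock mean of 37.6 CPM. Slc6a9, a glycine transporter, went from 29.4, 29.1 and 28.2 CPM to 57.3, 53.5 and 48.0 CPM (0.87 on the log2 scale, and 1.16 corrected). Slc7a5 and Slc1a5, which carry large neutral amino acids and glutamine, were called lower before the correction (-0.26 and -0.33) and were at 0.00 and -0.01 after it. The hormone gene Fgf21 had 4, 3 and 4 counts in HT-DNA against 20, 12 and 13, a log2 fold change of 2.02 ± 0.47 (SE; edgeR adjusted p = 0.00234). The lipoprotein receptor gene Vldlr was at 28.4, 31.8 and 30.4 CPM and then 70.0, 70.0 and 76.4 CPM, with no overlap (1.25 ± 0.12 SE on the log2 scale, edgeR adjusted p = 1.01e-06, and 0.82 corrected). Gdf15, a stress hormone gene, was called only with the correction (0.18, edgeR adjusted p = 0.157, and 0.67).

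Sterol synthesis and uptake genes were lower. Of 24 members that passed the filter of 27 listed, 17 fell and 1 rose, with a median log2 fold change of -0.34, and after the correction 19 fell and 1 rose, with a median of -0.42. Insig1, which holds SREBP in the endoplasmic reticulum, stood at 114, 118 and 112 CPM in HT-DNA and 78.3, 85.7 and 85.5 CPM in HT-DNA+AOA+Asp (log2 fold change -0.46, edgeR adjusted p = 9.4e-05). Cyp51, a demethylase of lanosterol, went from 453, 451 and 449 CPM to 334, 328 and 338 CPM, and Sqle, which oxidizes squalene, fell by 0.29 on the log2 scale. The ranges were apart for all of these. Srebf2, the gene of SREBP2, fell by 0.60. Hmgcs1, of an early step, was at 37.6, 43.5 and 39.3 CPM and then 42.0, 44.8 and 41.8 CPM, so the groups overlapped, with a log2 fold change of 0.10 (edgeR adjusted p = 0.522). The 1 member that rose was Npc1, which exports cholesterol from lysosomes (0.52, and 0.18 corrected).

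LXR and SREBP1 lipid genes went in both directions, with 6 of 19 higher and 5 lower (5 and 6 after the correction). The share called was 57.9% in each fit, against 46.6% of all genes (37.8% corrected). The cholesterol exporters rose: Abca1 went from 26.0, 38.0 and 28.4 CPM to 53.3, 59.5 and 59.1 CPM (log2 fold change 0.90, and 0.63 corrected), and Abcg1 from 3.64, 2.46 and 2.62 CPM to 6.09, 6.10 and 4.83 CPM. Their replicates did not overlap. Srebf1, the gene of SREBP1, went from 198, 199 and 225 CPM to 127, 139 and 126 CPM, and Fasn, the fatty acid synthase, fell by 0.67 on the log2 scale. Scd2, a fatty acid desaturase, was at 592, 663 and 549 CPM and then 561, 575 and 575 CPM (log2 fold change -0.08, edgeR adjusted p = 0.506), with overlapping groups. Lpin1, a phosphatidate phosphatase, went from 4.90, 5.73 and 4.76 CPM to 8.46, 9.81 and 7.29 CPM, a log2 fold change of 0.73 and of 0.58 corrected.

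Immediate early genes, which growth signals switch on through ERK within minutes, and the feedback inhibitors of ERK were more often lower than higher. Of 30 tested members of 34 listed, 16 fell and 4 rose, with a median log2 fold change of -0.64. After the correction 16 fell and 8 rose, with a median of -0.39. Without it 66.7% were called against 46.6% of all genes, and with it 80.0% against 37.8%. Among the 18 transcription factors 8 fell and 3 rose, and with the correction 7 fell and 6 rose, while among the 11 feedback genes 7 fell and 1 rose, and 8 fell and 2 rose. Egr1, a zinc finger factor, was at 9.29, 12.1 and 12.1 CPM in HT-DNA and 3.58, 3.41 and 3.26 CPM in HT-DNA+AOA+Asp (log2 fold change -1.71 ± 0.18 SE, edgeR adjusted p = 4.52e-06, and -1.47 corrected). Junb, a subunit of AP-1, was at 32.1, 33.2 and 39.4 CPM and then 12.7, 12.4 and 12.2 CPM (-1.49 ± 0.11 SE on the log2 scale, and -0.99 corrected). Fos was low, with 16, 24 and 28 counts against 3, 4 and 9 counts. Fosl1, another AP-1 subunit, fell by 0.91 and Ier2 fell by 1.25 on the log2 scale. The feedback inhibitors of ERK and of its receptors fell too, Dusp6 by 0.81 and Errfi1 by 0.82. Not all members went this way: Fosl2 rose by 0.55 on the log2 scale, Klf6 went from 55.0, 62.2 and 54.8 CPM to 90.8, 91.1 and 97.0 CPM, and Dusp4 had 0.17 (edgeR adjusted p = 0.0498) and 0.46 corrected. The call of Dusp4 without the correction was lost with the replicate block, with no filter on low counts and without any 1 of the 6 libraries except HT-DNA+AOA+Asp replicate 3 (edgeR adjusted p from 0.0581 to 0.271). Myc was called only after the correction (0.07 and 0.29).

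Few ISGs were called between HT-DNA+AOA+Asp and HT-DNA alone. Of 42 tested of 46 listed, 4 rose and 6 fell, 23.8% against 46.6% of all genes, and after the correction 3 rose and 2 fell, 11.9% against 37.8%. Their median stood at -0.03 on the log2 scale, or at 0.03 with libraries scaled by their totals, and 0.01 after the correction. The replicates of the groups compared did not overlap for 22 of the 42, beside 61.1% of all genes. Ifit1, an antiviral RNA-binding protein, was at 58.4, 70.0 and 69.3 CPM in HT-DNA and 72.3, 73.2 and 70.3 CPM in HT-DNA+AOA+Asp, a log2 fold change of 0.13 ± 0.10 (SE; edgeR adjusted p = 0.288), against means of 0.273 CPM in Mock and 191 CPM in HT-DNA+AOA. Cxcl10, an interferon-induced chemokine, was at 30.7, 30.6 and 31.2 CPM and then 26.8, 28.0 and 25.4 CPM, against 266 CPM in HT-DNA+AOA. Its ranges did not overlap, but the difference of -0.21 ± 0.12 (SE) on the log2 scale was not called (edgeR adjusted p = 0.149). Rsad2, an antiviral enzyme, and the chemokine Ccl5 were not called either, at -0.02 and -0.24. Isg15, the ubiquitin-like modifier, was called lower without the correction (-0.44, edgeR adjusted p = 0.0132) and not with it (-0.10, edgeR adjusted p = 0.442), and Oasl1 likewise (-0.30 and 0.03). Rtp4 fell by 0.45 on the log2 scale, and by 0.37 corrected. Ifi44 rose from 1.11, 1.80 and 1.13 CPM to 2.80, 2.88 and 2.22 CPM (0.96, and 0.68 corrected). Its means were 0.764 CPM in Mock and 21.9 CPM in HT-DNA+AOA. The count of 10 called ISGs ran from 4 to 11 when 1 library was left out, with 4 without HT-DNA replicate 3, 5 without HT-DNA replicate 1 or HT-DNA+AOA+Asp replicate 3, and 6 without HT-DNA+AOA+Asp replicate 2. This count also moved by over 1.5 times with only the libraries of the groups compared in the fit. The same held with the trend on GC content or length alone removed, so the number of ISGs called depends on the fit.

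DNA sensing and interferon induction genes had 5 of 28 tested members higher and 9 lower, with a median of -0.04 on the log2 scale (0.01 with libraries scaled by their totals), and 2 higher and 6 lower after the correction. The share called was 50.0% against 46.6% of all genes, and 28.6% against 37.8% after the correction. Cgas, the DNA sensor, was at 7.98, 6.77 and 8.69 CPM and then 7.44, 8.08 and 8.80 CPM, with overlapping groups and a log2 fold change of 0.05 (edgeR adjusted p = 0.781). Sting1 had a log2 fold change of -0.29 (edgeR adjusted p = 0.0354), a call lost in 12 of 18 alternatives, among them DESeq2, scaling by library totals, leaving out HT-DNA replicate 1 or HT-DNA+AOA+Asp replicate 1 or 3 (edgeR adjusted p from 0.0813 to 0.175) and the correction (-0.16). Tbk1 rose from 38.7, 42.8 and 38.4 CPM to 57.3, 56.9 and 56.4 CPM (0.51, and 0.37 corrected), while the related kinase gene Ikbke fell from 21.1, 20.2 and 22.7 CPM to 13.6, 13.2 and 15.6 CPM. Zbp1, a sensor of Z-form nucleic acids, was not called (-0.55, edgeR adjusted p = 0.0566). Of the kinases that act with it, Ripk3 fell by 0.43 on the log2 scale and Ripk1 was called higher only without the correction (0.37 and -0.01). The feedback inhibitors of interferon signalling Socs1 and Usp18 fell by 1.07 and 0.63. The 14 called members were 8 without HT-DNA replicate 1 or 3 and 9 without HT-DNA+AOA+Asp replicate 1.

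NF-kB targets and inflammatory cytokines fell more often than they rose, with 14 lower and 3 higher of 28 tested (10 and 3 after the correction). Their median log2 fold change was -0.38 (-0.18 corrected). Called were 60.7% of them against 46.6% of all genes, and 46.4% against 37.8% after the correction. Ccl2, the monocyte chemokine, was at 494, 481 and 510 CPM and then 476, 493 and 502 CPM and was not called. Cxcl1, a neutrophil chemokine, fell from 165, 154 and 160 CPM to 109, 119 and 121 CPM, with no overlap. Csf1, the macrophage growth factor, fell by 0.40 on the log2 scale and Lif, a cytokine of the interleukin-6 family, fell by 0.69. Nos2, the inducible nitric oxide synthase, was among the 3 that rose, at 2.22, 3.27 and 2.88 CPM and then 3.53, 4.42 and 5.44 CPM. The 17 called members were 11 without HT-DNA replicate 1.

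Genes of DNA replication and the cell cycle were lower, 24 of 43 against 6 higher without the correction and 24 against 5 with it. Their median log2 fold change was -0.23, and -0.14 corrected. That is 69.8% called beside 46.6% of all genes, and 67.4% beside 37.8% corrected. Cdk1, the kinase of mitotic entry, was at 218, 190 and 183 CPM in HT-DNA and 116, 116 and 122 CPM in HT-DNA+AOA+Asp, with no overlap (-0.74 ± 0.10 SE, edgeR adjusted p = 2.19e-05, and -0.92 corrected), and the Mock mean was 127 CPM. Plk1, a mitotic kinase, fell from 199, 189 and 211 CPM to 116, 116 and 115 CPM, and Cdc20, which activates the anaphase-promoting complex, fell by 0.71 on the log2 scale, though 25.5% of its 31-base stretches are shared. Ccnd1, cyclin D1, fell from 974, 957 and 989 CPM to 572, 570 and 583 CPM, and Mcm5, of the replicative helicase, fell by 0.55. Among the few that rose were Pola1, a subunit of DNA polymerase alpha (0.77, and 0.40 corrected), and Cdkn1b, an inhibitor of cyclin-dependent kinases (0.69, and 0.38 corrected).

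Pyrimidine synthesis and salvage genes, whose de novo arm uses aspartate, had 17 of 31 lower and 3 higher without the correction. The counts were the same with it, with medians of -0.25 and -0.22. However, only 14 of the lower and 2 of the higher genes were shared by both fits. In each fit 64.5% were called, against 46.6% of all genes (37.8% corrected). Umps, the last enzyme of de novo UMP synthesis, went from 396, 396 and 411 CPM to 342, 325 and 336 CPM. Dhodh, the mitochondrial step before it, went from 28.3, 24.4 and 26.1 CPM to 17.9, 19.2 and 19.3 CPM. Both pairs of ranges were apart. Cad, whose protein joins carbamoyl phosphate to aspartate, had a log2 fold change of -0.18 and was not called (edgeR adjusted p = 0.0615). Rrm2, which makes deoxynucleotides, fell by 0.70 on the log2 scale. Slc29a2, a nucleoside transporter, fell from 40.1, 34.6 and 38.3 CPM to 16.7, 17.0 and 16.7 CPM, and Uprt was one of those that rose (0.84, and 0.76 corrected).

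The targets of AOA and the uses of aspartate had calls in both directions. Of 24 aminotransferase and malate-aspartate shuttle genes 4 rose and 8 fell without the correction (50.0% called, near the 46.6% of all genes), and as many with it, of which the 4 that rose but only 4 that fell were the same genes, with a median log2 fold change of -0.12 (-0.05 corrected). Got1, the cytosolic aspartate aminotransferase, was at -0.11 (edgeR adjusted p = 0.165). Got2, the mitochondrial one, went from 422, 405 and 410 CPM to 351, 340 and 342 CPM and was called lower at -0.26, but was at -0.01 after the correction (edgeR adjusted p = 0.908), and 20.3% of its 31-base stretches are shared. Slc25a22, a mitochondrial glutamate carrier, fell by 0.58 (by 0.38 corrected). Of 25 genes of aspartate uptake and use 5 rose and 9 fell (6 and 8 corrected; 56.0% called in each fit), among them the purine genes Adsl, which fell by 0.37, and Paics, which rose by 0.37. Ass1, which joins aspartate to citrulline, was called lower only without the correction (-0.41 and -0.10), and 43.1% of its 31-base stretches are shared. Of 22 serine synthesis and one-carbon genes 8 rose and 3 fell in each fit (50.0% called), the same 8 but only 1 of the 3 in both.

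Ribosomal protein and respiratory chain genes were mostly lower before the correction and less often called after it. With it, 32.5% of cytosolic ribosomal genes and 36.2% of respiratory chain subunits were called, near the 37.8% of all genes. The share was 53.8% for mitochondrial ribosomal genes. Of 83 cytosolic ribosomal protein genes 48 fell and 1 rose without it, and 18 fell and 9 rose with it, with medians of -0.35 and -0.07. The 1 that rose without it was Rpl4 (0.15, and 0.26 corrected), whose call was lost with no filter on low counts and without any 1 library except HT-DNA replicate 3 (edgeR adjusted p from 0.0579 to 0.231), and Rplp1 went from 1010, 844 and 1030 CPM to 606, 627 and 638 CPM (-0.62, and -0.16 corrected). Both have shared stretches (29.1% and 75.1%). The 49 called members were 18 without HT-DNA replicate 1 and 23 without HT-DNA replicate 3, and 27, 29 and 31 without HT-DNA+AOA+Asp replicates 1, 2 and 3. Of 78 mitochondrial ribosomal protein genes 50 fell, and 39 fell and 3 rose with the correction (medians -0.32 and -0.19), among them Mrpl20 at -0.82 and -0.60. Of 80 nuclear respiratory chain subunits 46 fell and 3 rose, and 24 fell and 5 rose with the correction (medians -0.35 and -0.10). Uqcr11, of complex III, had -0.72 and -0.22, while Sdha of complex II rose by 0.57 and Ndufs1 of complex I rose by 0.42, both in either fit. The 49 called subunits were 27 without HT-DNA replicate 1.

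Other genes of mitochondria and translation showed mixed directions. Of the 13 mitochondrially encoded mRNAs 2 rose and 3 fell (2 and 2 corrected), mt-Co1 among those that rose at 0.30, with 63.9% of its 31-base stretches shared. Of these mRNAs 38.5% were called against 46.6% of all genes, and 30.8% against 37.8% corrected. The 5 called were 3 without HT-DNA+AOA+Asp replicate 1 or 2. Of 32 genes of mtDNA maintenance and repair 2 rose and 12 fell (3 and 9 corrected), which is 43.8% called against 46.6% of all genes, and the 14 called were 9 without HT-DNA replicate 1. The 37 aminoacyl-tRNA synthetases had 12 higher and 7 lower (16 and 7 corrected), and among the 20 cytosolic ones 9 were higher and 3 lower (13 and 1 corrected). Of all 37, 51.4% were called, near the 46.6% of all genes (62.2% against 37.8% corrected). Lars went from 90.0, 109 and 94.6 CPM to 172, 171 and 160 CPM, Eprs rose by 0.75 on the log2 scale and Iars rose by 0.66, which charge tRNAs with leucine, glutamate and proline, and isoleucine. The amino acid response element stood before 3 of the 27 synthetase genes with a promoter sequence (11.1%).

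Chaperones of the endoplasmic reticulum were higher, while those of the cytosol were mixed. Of 32 heat shock and ER chaperone genes 13 rose and 8 fell (14 and 6 corrected). This is 65.6% called against 46.6% of all genes, and 62.5% against 37.8% corrected. Among the 14 ER chaperones 8 rose and 3 fell (9 and 1 corrected). Hspa5 (BiP) went from 4310, 4200 and 3810 CPM to 5720, 5310 and 5580 CPM and Hsp90b1 from 2430, 2790 and 2450 CPM to 3730, 3840 and 4060 CPM, with no overlap in either. Hspa8, the constitutive cytosolic Hsp70, fell from 2230, 2210 and 2180 CPM to 1760, 1570 and 1650 CPM, though 43.5% of its 31-base stretches are shared. Of 11 genes of the osmotic response 4 rose and 1 fell (5 and 2 corrected). The share called was 45.5%, near the 46.6% of all genes (63.6% against 37.8% corrected). Slc5a3, the myo-inositol importer, went from 45.4, 62.2 and 51.6 CPM to 162, 166 and 157 CPM (1.61 ± 0.17 SE on the log2 scale, edgeR adjusted p = 3.73e-06). Hspa4l, a chaperone induced by high salt, went from 22.1, 28.4 and 24 CPM to 89.0, 95.4 and 89.2 CPM. Their Mock means were 186 and 60.0 CPM, and their HT-DNA+AOA means 72.1 and 30.9 CPM.

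The remaining groups fell more often than they rose before the correction, or were balanced. Of all genes 46.6% were called (37.8% corrected). Beside this, 53.8% were called for NRF2 (50.0% corrected), 58.8% for hypoxia (41.2%) and 59.1% for p53 (59.1%). The shares were 59.4% for extracellular matrix (34.4% corrected), 70.6% for TGF-beta and YAP (58.8%) and 58.1% for lysosome (45.2%). NRF2 antioxidant genes had 2 of 26 higher and 12 lower (5 and 8 corrected), with Mt1, a metallothionein, from 483, 450 and 488 CPM to 245, 255 and 264 CPM. Hypoxia and glycolysis genes had 6 of 34 higher and 14 lower (6 and 8 corrected), and the HIF targets Ero1a and Ndrg1 were among those that rose, at 0.83 and 0.68. The p53 targets had 5 of 22 higher and 8 lower in each fit (4 and 6 of them the same genes), Cdkn1a (p21) lower at -0.61, and a median of -0.03 that became 0.02 with libraries scaled by their totals. Extracellular matrix and integrin genes had 6 of 32 higher and 13 lower (5 and 6 corrected), with 12 called in place of 19 without HT-DNA replicate 3. TGF-beta and YAP targets had 3 of 17 higher and 9 lower (3 and 7 corrected), with Ccn1 at -0.87 and Tgfb1 at -0.84. Lysosome and autophagy genes had 10 of 31 higher and 8 lower (12 and 2 corrected), with the proton pump subunit Atp6v1a higher at 0.56 and Tfeb, which drives lysosome genes, lower at -0.94.

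Zinc finger genes and noncoding RNAs were more often higher than lower. Of 328 tested genes with the symbols of KRAB-type zinc finger proteins, repressors whose transcripts are poor in GC (median 43.7%), 127 rose and 21 fell, and 99 rose and 23 fell with the correction (median log2 fold change 0.30, and 0.18 corrected). The share of them called was 45.1% (37.2% corrected), near the 46.6% of all genes (37.8% corrected). In the decile of all genes with 43.4% to 45.5% GC, 40.0% were called higher and 7.19% lower (23.3% and 15.8% corrected). Zfp329 went from 3.38, 4.88 and 4.02 CPM to 12.8, 14.5 and 11.3 CPM. Of 1428 long noncoding RNAs 244 rose and 87 fell (183 and 32 of 1110 corrected, with medians of 0.16 and 0.26), beside 2820 and 3183 of 11684 protein-coding genes (2398 and 2409 of 11662 corrected). Of 440 processed pseudogenes 47 rose and 31 fell (46 and 5 of 438 corrected), with medians of -0.05 and 0.18. Over all genes tested 23.2% rose and 23.5% fell (20.0% and 17.9% corrected).

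**Figure D3:**
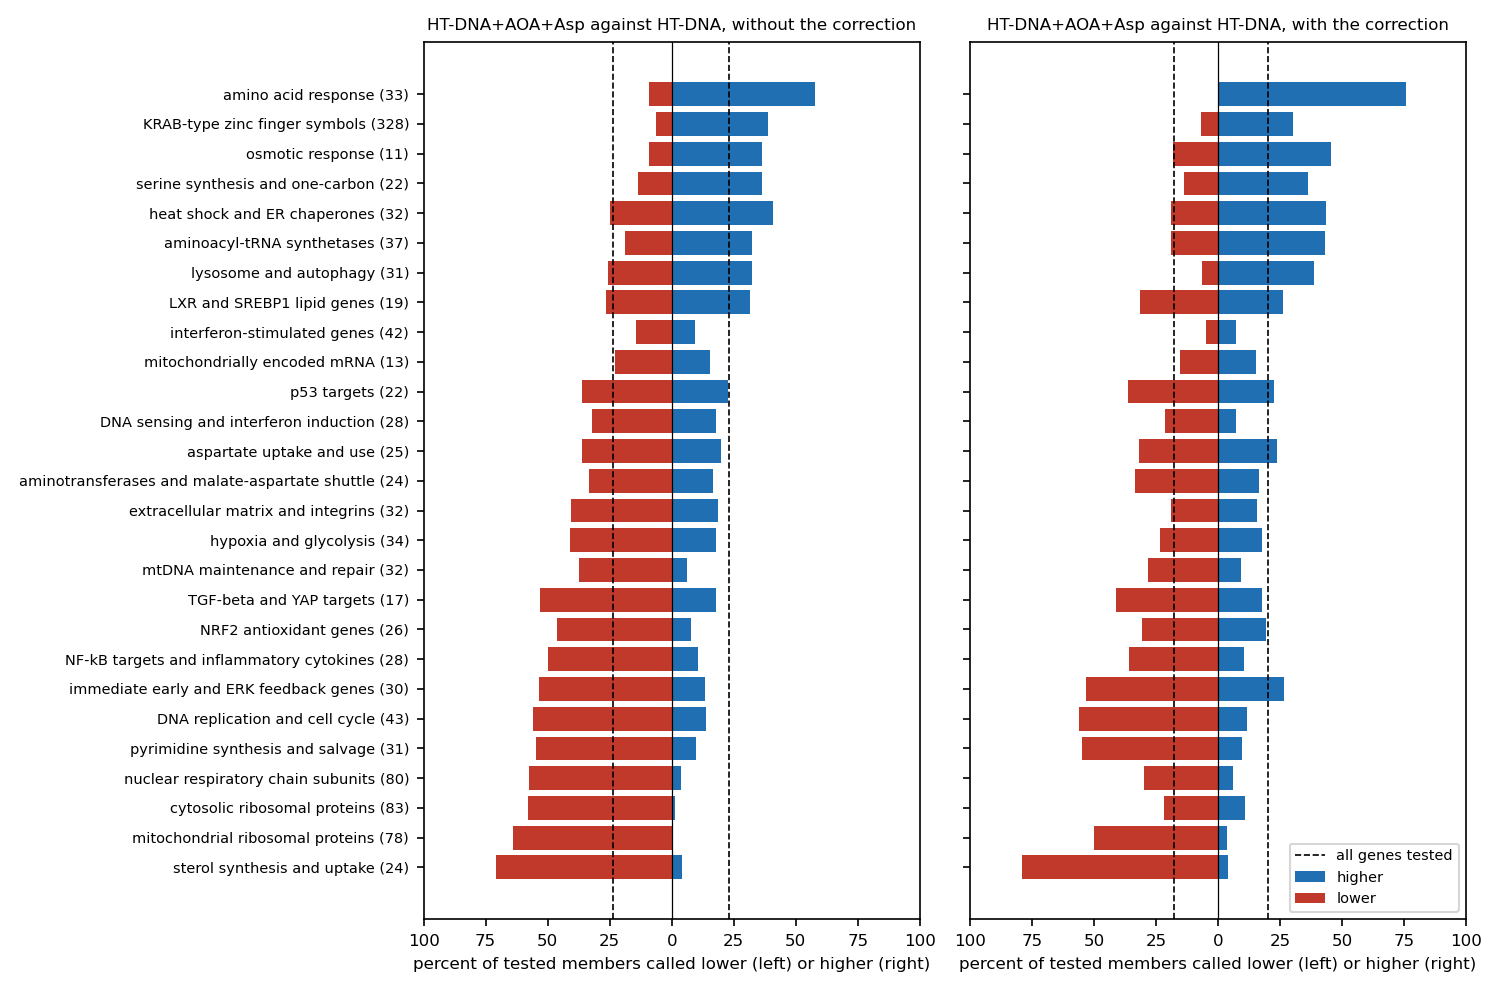
Percent of the tested members of each of the 27 groups called higher (right) and lower (left) in HT-DNA+AOA+Asp than in HT-DNA, without and with the correction for GC content and length, with dashed lines for all genes tested (23.2% and 23.5% without it, 20.0% and 17.9% with it). The amino acid response lies furthest on the higher side and the sterol genes furthest on the lower side in both fits, while the ribosomal and respiratory chain groups shrink with the correction.

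AOA and aspartate without HT-DNA gave a second comparison, AOA+Asp against Mock, that shares no library with the first. By edgeR it called 923 of 14263 genes (6.47%), 360 higher (2.52%) and 563 lower (3.95%), and 1609 of 13909 with the correction (11.6%), 764 higher (5.49%) and 845 lower (6.08%). The AOA+Asp libraries also had a GC trend, with medians of 0.18 and -0.13 in the deciles of genes poorest and richest in GC. Across genes the comparisons with and without HT-DNA correlated with Pearson's r of 0.331 and Spearman's rho of 0.473 (0.263 and 0.37 corrected), given as a description since genes are not independent replicates and both follow GC content. Called in both were 641 genes, 621 of them in the same direction (227 higher and 394 lower), which is 9.34% of the genes called with HT-DNA and 67.3% of those called without it. With the correction 1017 were called in both, 956 of them in the same direction (464 higher and 492 lower), 18.2% and 59.4%.

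The difference between both comparisons was tested gene by gene as an interaction. By edgeR 891 of 14263 genes were called (6.25%), 462 with a more positive value with HT-DNA (3.24%) and 429 with a more negative one (3.01%), and with libraries scaled by their totals, which moved the median by 0.10, the split was 731 and 201. With the correction 1552 of 13909 were called (11.2%), 867 more positive (6.23%) and 685 more negative (4.92%), and 735 genes were called both ways in the same direction. The count without the correction depended on single libraries. Leaving out any of the 12 libraries other than HT-DNA replicate 2 (1085 genes) lowered it by over 1.5 times, to between 129 without AOA+Asp replicate 2 and 592 without AOA+Asp replicate 1, and the count with the correction lay between 780 and 1473.

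Amino acid response genes had 16 of 33 interactions called more positive with HT-DNA and none more negative (21 and none with the correction). Without HT-DNA 5 of them rose and 2 fell (10 and 2 corrected). Over all genes 3.24% of interactions were more positive and 3.01% more negative (6.23% and 4.92% corrected). Without HT-DNA 2.52% of all genes rose and 3.95% fell (5.49% and 6.08% corrected). Ddit3 rose without HT-DNA as well, by 1.17 on the log2 scale from a mean of 46.2 CPM in Mock to 104 CPM in AOA+Asp, and the interaction was 0.64. Aldh1l2, Vldlr and Slc7a11 had interactions of 1.09, 1.16 and 1.00. The means of Aldh1l2 and Vldlr in Mock were 136 and 72.9 CPM, against HT-DNA values of 60.2 to 74.5 CPM and 28.4 to 31.8 CPM. Gadd45a rose by 1.03 without HT-DNA, with an interaction of 0.78.

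Sterol genes were lower in both comparisons and by more without HT-DNA. There 20 of 24 fell, with a median of -0.72, and 12 interactions were called more positive and none more negative (14 and none corrected). Over all genes 3.95% fell without HT-DNA and 3.24% of interactions were more positive (6.23% corrected). Hmgcs1 fell by 0.84 without HT-DNA, from a Mock mean of 86.5 CPM, and had an interaction of 0.94. Insig1 fell by 1.25 without HT-DNA, with an interaction of 0.79. Of the LXR and SREBP1 genes none rose and 10 of 19 fell without HT-DNA, with 9 interactions more positive and 1 more negative. Scd2 fell by 1.24 there, from 1430 to 603 CPM, and Lpin1 fell by 1.05, from 27.9 to 13.4 CPM, with interactions of 1.17 and 1.78, and their Mock means lay above all 3 HT-DNA libraries.

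Immediate early genes fell without HT-DNA too, 16 of 30 against 2 that rose, and few interactions were called (1 more positive and 2 more negative, or 5 and 1 corrected). Egr1 fell by 2.38 there. Of all genes, 6.47% were called without HT-DNA (11.6% corrected) and 6.25% had a called interaction (11.2% corrected). Heat shock and ER chaperone genes had 12 of 32 higher and none lower by edgeR without HT-DNA (22 and 1 corrected), and 4 interactions more negative (9 corrected). DNA replication genes had none higher and 2 lower of 43 without HT-DNA, and 9 interactions more negative (1 positive and 14 negative corrected). Cytosolic ribosomal protein genes had 1 higher and none lower without HT-DNA (18 and none corrected), and KRAB-type zinc finger genes had 21 higher and 2 lower (33 and 7 corrected). Of the ISGs 2 fell without HT-DNA, and the 1 called interaction (3 corrected) was that of Ifi44.

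**Figure D4:**
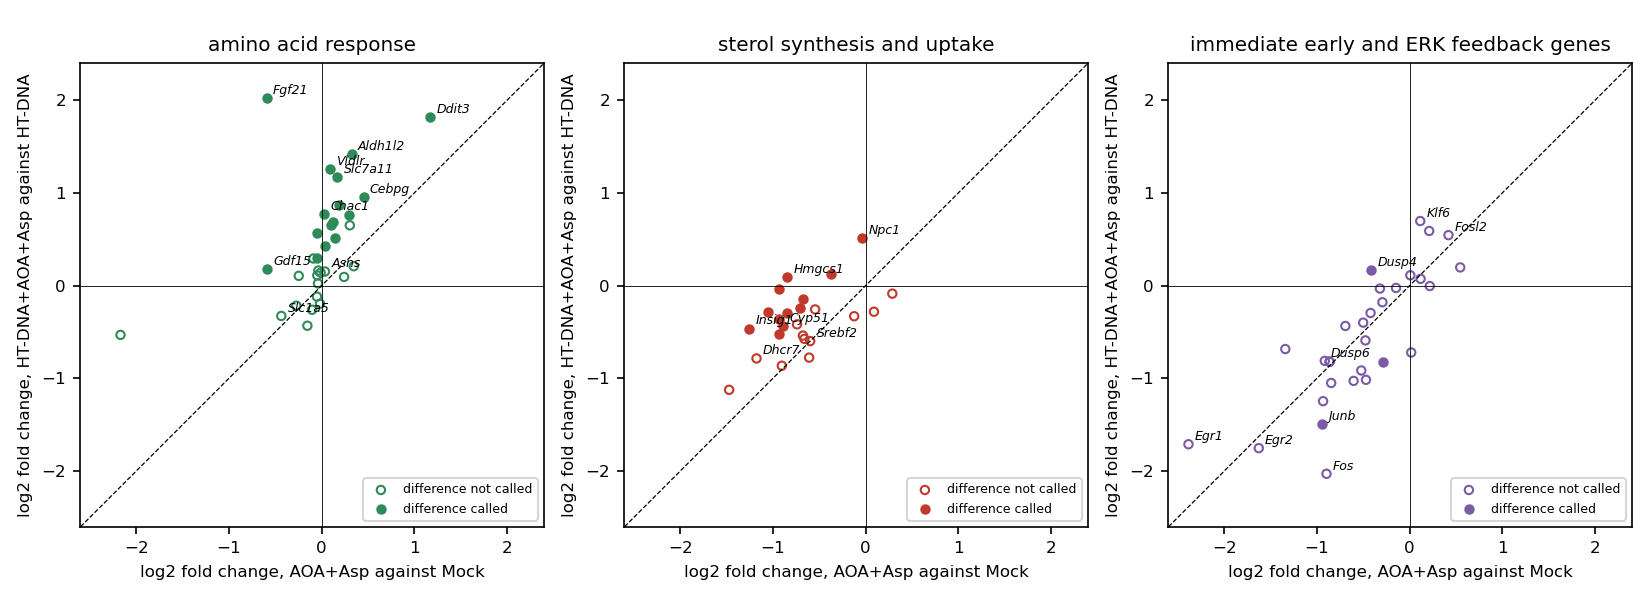
Each point is a gene of the amino acid response, sterol or immediate early group, with its log2 fold change of AOA+Asp against Mock on the horizontal axis and of HT-DNA+AOA+Asp against HT-DNA on the vertical axis, filled where the difference between both was called, and the dashed line marks equal values. Most sterol genes lie below 0 on both axes and above the dashed line, most amino acid response genes lie above it, and most immediate early genes lie below 0 on both axes, on either side of it.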

How the data were processed

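RNA from L929 cells was measured in 18 libraries, 3 in each of 6 groups, and samples were grouped by their labels. As deposited by the authors, the table holds estimated counts of 57180 genes with no normalization, of which 11.6% were not whole numbers. The aligner, counter and genome build are not given in the sources used here. Counts had been assumed to be whole in the planned design, so they were rounded. The 6 columns of group means in the table were not used.

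Genes were kept by filterByExpr (at least 10 counts in libraries of the smallest group size and 15 in all), scaled by TMM (factors from 0.918 to 1.07) and fitted over all 18 libraries with edgeR 4.0.16 (robust quasi-likelihood test, R 4.3.3). P-values were adjusted by Benjamini-Hochberg over all genes tested, and an adjusted p under 0.05 is a call. Fold changes are on the log2 scale, HT-DNA+AOA+Asp over HT-DNA. For the correction, each library's robust loess trend (span 0.3, genes of at least 1 CPM) of log2 CPM on GC content and log2 length of the longest GENCODE vM21 transcript was entered as an offset. That annotation may differ from the one the authors used, and 5296 genes had no value in it. P-values measure the spread between these cultures.

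All genes of 27 groups could be named, apart from some that are not reported here. So could the 15 largest rises and falls called with and without the correction, with a mean of 1 CPM or more where higher and replicates that did not overlap, the 5 genes each way whose call the correction removed with the largest move (at least 10 CPM), and the 8 largest interactions each way. The comparison, groups and genes were chosen with earlier results of these data known. Alternatives were DESeq2 1.42.0, other scalings, filters, spans and libraries, a minimum fold change, the replicate block and leaving out each library. The scripts were tested on simulated data. Sequence shared with other genes was counted as the percent of a gene's 31-base stretches found in another gene's transcripts, and levels are CPM, not per length, so they are compared between groups and not between genes.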

Additional observations from a re-analysis of the deposited data

Results flagged for a closer look

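For 64 of the 153 genes named, the log2 fold change of HT-DNA+AOA+Asp over HT-DNA differed from that of AOA+Asp over Mock by edgeR's interaction test (adjusted p under 0.05). The difference was positive for 39 and negative for 25, and 60 were also called with the correction for GC content and length, all but Npc1, Junb, Pim3 and Zfp771. Each was also called in at least 1 of the comparisons alone. The values below are interactions on the log2 scale.

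Among amino acid response genes the interaction was 2.62 for Fgf21, 1.16 for Vldlr, 1.09 for Aldh1l2, 1.00 for Slc7a11, 0.77 for Gdf15, 0.74 for Chac1, 0.69 for Slc6a9, 0.64 for Ddit3, 0.61 for Gpt2, 0.57 for Trib3, 0.55 for Cth, 0.50 for Cebpg and 0.47 for Ppp1r15a. For lipid genes it was 1.78 for Lpin1, 1.17 for Scd2, 0.94 for Hmgcs1, 0.79 for Insig1, 0.56 for Sqle, 0.55 for Npc1 and 0.45 for Cyp51. Among signalling, interferon and cytokine genes it was 1.79 for Ifi44, 1.14 for Nos2, 0.61 for Cxcl1, 0.58 for Dusp4 and -0.55 for Junb.

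Other positive interactions were 1.95 for Or5ac22, 1.89 for Dapk1, 1.85 for Ptafr, 1.78 for Neat1, 1.75 for Vmn1r18, 1.66 for Fam171b, 1.37 for Slc5a3, 1.06 for Ppargc1a, 0.92 for Ero1a, 0.79 for Uprt, 0.78 for Gadd45a, 0.77 for Ndrg1, 0.69 for the tRNA synthetase gene Lars, 0.52 for Atp6v1a and 0.51 for Iars. Or5ac22, Dapk1, Ptafr and Vmn1r18 were low, with HT-DNA means of 0.356, 0.445, 0.957 and 0.311 CPM. None of them was called without HT-DNA, and 19.7% of the 31-base stretches of Or5ac22 are shared. Among cell cycle and nucleotide genes the interaction was negative, at -0.68 for Slc29a2, -0.64 for Cdc20, -0.63 for Cdk1, -0.58 for Plk1, -0.51 for Dhodh, -0.43 for Ccnd1, -0.37 for Adsl and -0.32 for Umps, except for Uprt.

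The other negative interactions were -1.66 for Dusp28, -1.34 for Klk10, -1.24 for Atoh8, -1.15 for Tmem171, -1.14 for Acsbg1, -1.12 for Oaf, -1.11 for Hspb7, -1.06 for Apoe, -1.01 for Ccn1, -0.80 for Angptl4, -0.76 for Mt1, -0.74 for Apln, -0.73 for Zfp771, -0.53 for Pim3, -0.51 for Hspa8 and -0.47 for Slc25a22. Acsbg1 was higher without HT-DNA (0.76) and lower with it (-0.38), as was Hspb7 (0.64 and -0.47). After the correction neither was called with HT-DNA, at -0.12 and -0.13 (edgeR adjusted p = 0.167 and 0.478). Atoh8 had 0.83 and -0.42, but 0.06 with HT-DNA after the correction.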

How the results depend on the processing

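The 6649 genes called between HT-DNA+AOA+Asp and HT-DNA were 6286 to 7733 under other tools, scalings, filters and choices of libraries, and 5466 and 6118 with the trend on GC content or length alone removed. They were 5088 to 6507 with 1 library left out, and 486 when a change of 1 or more on the log2 scale was also asked for. The 5259 called after the correction were 4196 to 4825 and 326 in the same terms. The 639 members of the gene groups called were 484 to 627 and 38.

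The 891 interactions became 1906 by DESeq2, 2192 with no filter on low counts, 4408 with only the libraries of the groups compared in the fit, 96 with the minimum fold change, and 1552 with the correction (1688 with the correction and the replicate block). With 1 library left out they ran from 129 to 1085: 592, 129 and 499 without AOA+Asp replicates 1 to 3, 171 and 138 without HT-DNA replicates 1 and 3, 209, 161 and 247 without HT-DNA+AOA+Asp replicates 1 to 3, and 146, 225 and 381 without Mock replicates 1 to 3. The 1552 corrected interactions became 99 with the minimum fold change and 3292 with only the libraries compared. They ran from 780 to 1473 with 1 library left out, with 780 without AOA+Asp replicate 2, 983 and 909 without HT-DNA replicates 1 and 3, 1002 and 859 without HT-DNA+AOA+Asp replicates 1 and 2, and 858 without Mock replicate 1. The cause was not tested.

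Of the 134 named genes called, 39 were called under all 18 alternatives and 63 lost the call only with the minimum fold change. In 13 the sign changed. With the trend on GC content alone removed, the log2 fold change became 0.035 for Slc7a5, 0.145 for Zfp771, 0.096 for Samd1, 0.164 for Sap30l and 0.028 for Atoh8. With that on length alone removed it became -0.339 for Nopchap1, -0.013 for Hnrnpr, -0.135 for Styx and -0.035 for Pnpla8. With both removed, and then with the replicate block as well, it was 0.001 and 0.001 for Slc7a5, 0.051 and 0.050 for Atf5, 0.031 and 0.032 for Oasl1, 0.072 and 0.070 for Mif, 0.164 and 0.165 for Zfp771, -0.142 and -0.142 for Nopchap1, 0.115 and 0.115 for Samd1, -0.169 and -0.168 for Styx, -0.045 and -0.046 for Pnpla8, 0.199 and 0.198 for Sap30l, 0.057 and 0.056 for Atoh8, and -0.010 and -0.010 for Ripk1. The call of 14 genes was lost when 1 library was left out (Asns, Nupr1, Slc7a5, Dusp4, Isg15, Nos2, Zfp771, Rpl4, Sap30l, Ptafr, Atoh8, Hspb7, Sting1 and Ripk1).

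Same-numbered HT-DNA and HT-DNA+AOA+Asp libraries had deviations that correlated at -0.062, 0.0828 and 0.122, so the numbers were not taken to pair the cultures. With a replicate block 6692 genes were called (5390 corrected), 1048 interactions (1688 corrected) and 656 group members. Replicates 2 and 3 correlated best with their own number and replicate 1 did not. With 3 cultures a group and up to 11.6 times the counting variance between replicates, differences of low genes such as Fos and Fgf21 are imprecise. Larger SEs were those of Exosc6 (2.09) and Eif4a-ps4 (0.73), whose sequence is shared with other genes.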
